A study of Mus musculus with 8 samples.

Results

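The Rhox genes are a family of homeobox genes that lie together on the X chromosome of the mouse and are expressed mainly in the gonads and the placenta. The members described here are 8 single-copy genes, *Rhox1*, *Rhox5*, *Rhox6*, *Rhox8*, *Rhox9*, *Rhox10*, *Rhox12* and *Rhox13*, chosen by name out of the 55421 genes of the count table. No measured value entered that rule, but the members and the gene lists used below were chosen with earlier results of these data known. The table holds 34 further genes and pseudogenes whose names begin with Rhox. Of the 8 members, 6 had enough reads to be tested, and *Rhox8* and *Rhox12* did not.

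RNA-seq was performed on SSC culture, a primary culture of undifferentiated spermatogonia from 6-day-old F1 hybrid pups (C57BL/6XDBA/2). The cells grow on irradiated embryonic fibroblasts from CF1 mice in medium with GDNF and bFGF, the growth factors that keep spermatogonia in the stem cell state. Whether these feeder cells were removed before RNA extraction is not given in the sources used here. The 4 conditions, each held for 2 days, were vehicle in complete medium (Veh), 100 nM retinoic acid in complete medium (RA), nutrient restriction in 90% Earle's balanced salt solution, EBSS, with 10% complete medium (NR), and nutrient restriction with 100 nM RA (NRRA). Each condition has 2 libraries, which the study describes as independent biological replicates, and the comparisons ask how RA and nutrient restriction act on spermatogonia, alone and together.

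Homeobox genes encode transcription factors that bind DNA through a shared fold, the homeodomain. In the Rhox cluster, tandem duplication has made many near-identical copies of *Rhox2*, *Rhox3* and *Rhox4*, while the 8 members described here stand as single genes around them. DNA methylation keeps much of the cluster silent outside the reproductive tissues. In the testis, some members act in germ cells and others in Sertoli cells, the somatic cells that nurse them. RA, made from vitamin A, acts through nuclear receptors and starts spermatogonial differentiation and *Stra8* expression.

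Library totals ran from 19261333 to 30023585 reads assigned to genes, so that 3 reads, taken as the floor, stand for 0.0963 to 0.156 CPM, the reads of a gene scaled to a common library size. All CPM values are scaled by TMM, a normalization that sets most genes level between libraries. A gene was called at an adjusted p under 0.05 by edgeR's quasi-likelihood test together with a fold change of 2 or more. The RA response was present in the libraries. Of 10 retinoid response genes, 9 were called higher and 0 lower in RA than in Veh, with a median log2 fold change of 2.86 against -0.02 over all genes tested. *Stra8* had 1.51 and 1.14 CPM in Veh and 632 and 653 CPM in RA. Of 12 genes of undifferentiated spermatogonia, 8 were called lower in RA and 10 in NRRA, both against Veh. The germ cell genes *Ddx4*, *Dazl* and *Mael* together had 540 and 580 CPM in Veh and 738 and 760 CPM in NRRA. Most of that rise was *Dazl* (0.58 on the log2 scale, SE 0.0494, adjusted p = 1.11e-10), while *Mael* was lower (-0.15, SE 0.0485, adjusted p = 0.00989). Of the 3 other germ cell genes listed, *Sycp3* was called higher and *Dppa3* lower in NRRA, and *Tex101* did not pass the test.

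Other cells were measured with the spermatogonia. The summed level of 11 fibroblast genes ran from 9972 to 10250 CPM under Veh, 8123 to 8793 under RA, 21423 to 22519 under NR and 19097 to 19656 under NRRA. The collagen genes *Col1a1*, *Col1a2* and *Col3a1* made up most of it, and 6 of the 11 were called higher in NR than in Veh and 0 lower. *S100a4* fell by 0.87 in NR (SE 0.227, adjusted p = 0.00282) and by 2.32 in NRRA (SE 0.265, adjusted p = 2.7e-08) on the log2 scale, and *Lum* fell by 0.74 in NRRA (SE 0.0633, adjusted p = 1.4e-10). The summed level of 11 Sertoli cell genes ran from 55.1 to 58.1 CPM under Veh, 109 to 119 under RA, 58.7 to 62.6 under NR and 51.2 to 51.7 under NRRA. The Sertoli receptor gene *Fshr* had at most 3 reads in every library, and *Clu*, which other cells express too, was higher in RA with a log2 value of 3.18 (SE 0.0861, adjusted p = 2.77e-20). Without *Clu* the other 10 genes summed to 46.3 to 49.4 CPM under Veh and 33.4 to 33.9 under RA. Under NR they summed to 52.5 to 55.5 CPM and under NRRA to 20.1 to 21.3. Most of the Veh sum was *Sox9*, a defining factor of Sertoli cells, with 32.6 and 31.2 CPM in Veh and 14.7 and 14.7 in RA. It was called lower in RA (-1.12, SE 0.0791, adjusted p = 1.07e-11). *Wt1*, another gene of the list, went the other way, with 4.95 and 4.17 CPM in Veh and 8.87 and 9.05 in RA. Of the 8 Sertoli genes tested, 2 passed the adjusted p higher in RA and 1 lower. The 5 Leydig cell genes summed to 5.77 to 15.0 CPM and the 3 macrophage genes to 85 to 122 CPM. The part of other cells in the results below was not tested. Values scaled to the 3 germ cell genes are given as another normalization. They cannot test that part, since *Dazl* rose and *Mael* fell in RA and in NRRA against Veh. In bulk libraries, fewer cells of a type and less RNA per cell cannot be told apart.

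Among the members, *Rhox13* had the highest level per length and *Rhox8* the lowest. Per kilobase (kb) of exon, *Rhox13* had 16.1 CPM in Veh, *Rhox1* had 7.80, *Rhox10* had 3.77, *Rhox5* had 2.93, *Rhox6* had 0.177 and *Rhox9* had 0.133. *Rhox13* alone took 26.4% of all reads assigned to Rhox genes, *Rhox1* took 11.8% and *Rhox10* took 8.61%. Most members were therefore low, and the precision of *Rhox6* and *Rhox9* is limited by 3 to 33 reads per library.

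**Figure D1:**
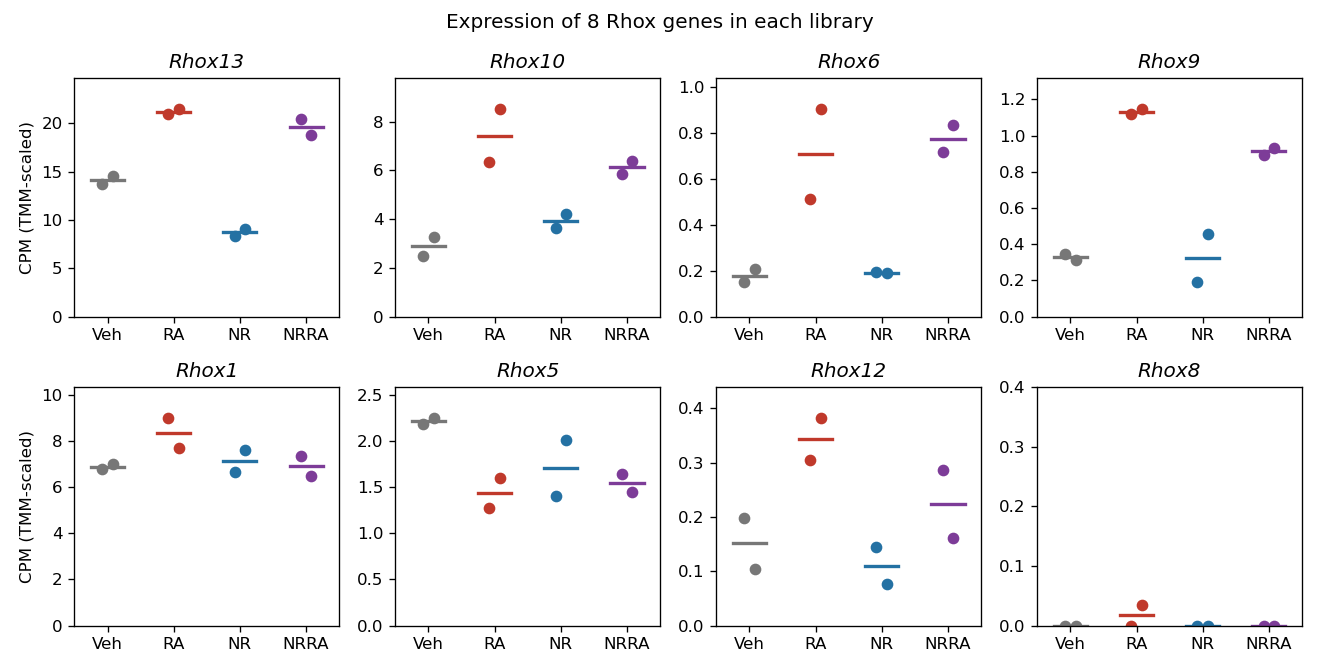
Level of each of the 8 *Rhox* members in CPM (vertical axis, its own scale in each panel and starting at 0) in the 4 conditions, with a point for each library and a line at the mean of 2 libraries. The points of *Rhox6* and *Rhox9* are higher in both RA-treated conditions than in Veh and NR, *Rhox13* is lowest in NR, and *Rhox8* has 1 read in 1 library.

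*Rhox13* (ENSMUSG00000050197, X:38121219-38129967, plus strand, GRCm38) encodes a homeodomain protein of male germ cells that is known to respond to RA. It had 13.7 and 14.6 CPM under Veh, 20.95 and 21.4 under RA, 8.38 and 9.07 under NR, and 20.4 and 18.8 under NRRA. The 4 RA-treated libraries were above all others and both NR libraries were below all others. With 2 libraries per condition, 68.1% to 77.3% of all genes tested did not overlap between a single pair of conditions. How many genes show the full order of *Rhox13* was not counted. The order of the means was RA with 21.2 ± 0.339 CPM (SD, n = 2), NRRA with 19.6 ± 1.12, Veh with 14.1 ± 0.651 and NR with 8.73 ± 0.489, and with TMM scaling only the first pair of neighbours in that order did not differ by the test (log2 difference -0.12, SE 0.0786, adjusted p = 0.262). The 250 bases before its RefSeq start are shown because *Rhox13* is the most abundant member and rose with RA. This start lies 379 bases from the start of the GENCODE gene. On GRCm38.p6 the run is X:38120590-38120839, plus strand.
Rhox13: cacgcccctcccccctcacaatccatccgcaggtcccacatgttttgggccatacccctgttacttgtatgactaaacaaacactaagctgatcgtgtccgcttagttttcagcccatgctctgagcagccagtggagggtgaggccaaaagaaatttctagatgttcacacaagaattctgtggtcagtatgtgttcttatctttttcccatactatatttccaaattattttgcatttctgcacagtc

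*Rhox10* (ENSMUSG00000053909, X:38066475-38071691, plus strand) is known for its part in forming spermatogonial stem cells from their precursors in the newborn testis. It had 2.48 and 3.28 CPM under Veh, 6.32 and 8.50 under RA, 3.61 and 4.21 under NR, and 5.86 and 6.39 under NRRA. Both libraries of Veh were the lowest and the RA-treated libraries the highest, with no overlap between any of Veh, NR and the RA-treated libraries. Between single pairs of conditions, 68.1% to 77.3% of all genes tested had no overlap either, and genes with the full order were not counted. The means were 7.41 ± 1.54 CPM in RA, 6.12 ± 0.374 in NRRA, 3.91 ± 0.425 in NR and 2.88 ± 0.570 in Veh (SD, n = 2 each). Of neighbours in this order, only NRRA and NR differed by the test. The 250 bases before the start of *Rhox10*, the only member called in RA against Veh whose level passed the filter in all 8 libraries, are X:38066225-38066474, plus strand, and hold 8 CpG dinucleotides.
Rhox10: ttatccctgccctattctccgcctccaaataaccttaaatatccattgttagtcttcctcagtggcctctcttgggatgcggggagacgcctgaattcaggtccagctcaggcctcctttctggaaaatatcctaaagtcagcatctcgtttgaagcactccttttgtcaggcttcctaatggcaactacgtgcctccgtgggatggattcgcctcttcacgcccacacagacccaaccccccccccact

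*Rhox6* and *Rhox9*, also named *Psx1* and *Psx2*, are a closely related pair first known from the placenta, and they lie on opposite strands (*Rhox6*, ENSMUSG00000006200, X:37826910-37829857, plus strand, and *Rhox9*, ENSMUSG00000068048, X:37899097-37901770, minus strand). *Rhox6* had 0.149 and 0.208 CPM under Veh, 0.510 and 0.902 under RA, 0.193 and 0.190 under NR, and 0.715 and 0.835 under NRRA, from 3 and 4 reads in Veh up to 26 in a single library of RA and of NRRA. *Rhox9* had 0.347 and 0.313 CPM under Veh, 1.12 and 1.14 under RA, 0.193 and 0.456 under NR, and 0.893 and 0.931 under NRRA. For both genes each RA-treated library was above every library without RA. Of all genes tested, 68.1% to 77.3% did not overlap between a single pair of conditions. The share that separates all RA-treated libraries from all others was not counted. Both entered the test through the RA-treated libraries, since a level of 0.416 CPM was needed and neither reached it in Veh. The pair shares a coding run of 161 identical bases, which is shown because reads that fall wholly inside it could come from either gene. Windows of the length of a read that also occur in the other gene were 6.70% of those of *Rhox6* and 2.41% of those of *Rhox9*, and the other 6 members shared none with any gene. The run lies at X:37827450-37827610 in *Rhox6* and X:37901167-37901327 in *Rhox9*.
Rhox6 and Rhox9: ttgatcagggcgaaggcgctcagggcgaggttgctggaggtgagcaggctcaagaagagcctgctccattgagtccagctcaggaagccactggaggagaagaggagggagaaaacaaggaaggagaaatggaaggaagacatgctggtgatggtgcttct

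*Rhox1* (ENSMUSG00000071773, X:37213804-37222258, minus strand) lies at the other end of the cluster from *Rhox13*. It had 6.79 and 6.98 CPM under Veh, 8.97 and 7.70 under RA, 6.65 and 7.59 under NR, and 7.36 and 6.49 under NRRA. The 4 conditions lay close to each other, with means between 6.88 and 8.33 CPM, and no pair of conditions differed at an adjusted p under 0.05 with TMM scaling. Scaled to *Ddx4*, *Dazl* and *Mael* in place of TMM, NRRA was lower than Veh by -0.41 (adjusted p = 0.0106) and lower than RA by -0.40 (adjusted p = 0.0173) on the log2 scale. With library totals alone, or with the trend of GC content and length removed, RA was higher than Veh (0.36, adjusted p = 0.0264, and 0.34, adjusted p = 0.032). Of the 5 members with a promoter window in the RefSeq table, only *Rhox1* had a window (250 bases before to 50 after the start) with a direct repeat of retinoid half-sites, and the last 30 bases of it are shown for that reason with the half-sites in capitals (X:37222209-37222238, minus strand).
Rhox1: ggtcacaaggggcaaAGGTCAtAGGTCAca

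*Rhox5* (ENSMUSG00000095180, X:37804842-37808876, plus strand), also named *Pem*, is the founding member of the family and is known for its expression in Sertoli cells. It had 2.18 and 2.24 CPM under Veh, 1.27 and 1.595 under RA, 1.40 and 2.01 under NR, and 1.64 and 1.44 under NRRA. Both Veh libraries were above the 6 others, but no pair of conditions differed at an adjusted p under 0.05 with TMM. Of all genes tested, 68.1% to 77.3% had no overlap between Veh and 1 other condition, and the share for Veh against all 6 others was not counted. Scaled to *Ddx4*, *Dazl* and *Mael* in place of TMM, *Rhox5* was lower than in Veh with every treatment, by log2 values of -0.89 for RA (adjusted p = 0.00283), -0.64 for NR (adjusted p = 0.0293) and -0.94 for NRRA (adjusted p = 6e-04).

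*Rhox12* (ENSMUSG00000071766, X:38104077-38110907, minus strand) had 4 and 2 reads under Veh, 6 and 11 under RA, 3 and 2 under NR, and 8 and 5 under NRRA, which is at most 0.381 CPM. Fitted without the filter on low counts, RA against Veh gave an adjusted p of 0.345. *Rhox8* (ENSMUSG00000064137, X:37874778-37878944, minus strand), a gene known from Sertoli cells, had 0 reads in 7 libraries and 1 read in the second RA library, so that no difference was detectable at this depth.

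*Rhox10* was higher in RA than in Veh, and so were *Rhox6* and *Rhox9*, which were tested only because their RA-treated libraries passed the filter on low counts. The log2 fold change against Veh was 2.02 for *Rhox6* (SE 0.545, adjusted p = 0.00375), 1.77 for *Rhox9* (SE 0.428, adjusted p = 0.00148) and 1.39 for *Rhox10* (SE 0.177, adjusted p = 4.19e-07). *Rhox13* rose by less than 2-fold, at 0.59 on the log2 scale (SE 0.0883, adjusted p = 5.26e-06). The size of this rise depends on the processing, with values from 0.31 to 0.69 and adjusted p up to 0.0235 over the alternatives tried. *Rhox1* had 0.26 (SE 0.130, adjusted p = 0.110) and *Rhox5* had -0.60 (SE 0.253, adjusted p = 0.0594). Of the 4 members that passed the filter in every condition, 1 was called. Of all genes tested 7.49% were called (4.74% higher), and 43.2% passed the adjusted p at any fold. By DESeq2, *Rhox6* lost its call with an adjusted p of 0.0558, and without the second RA library its log2 fold change was 1.49 with an adjusted p of 0.129.

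NR alone changed 1 member past the adjusted p and called none. *Rhox13* fell by 0.69 on the log2 scale (SE 0.102, adjusted p = 3.98e-06), to a level 0.62 times that of Veh. *Rhox10* had 0.46 (SE 0.201, adjusted p = 0.0681), *Rhox5* had -0.35 (SE 0.245, adjusted p = 0.268), and *Rhox6*, *Rhox9* and *Rhox1* lay between 0.04 and 0.10. By edgeR 2 members had an unadjusted p under 0.05, DESeq2 called 0. Of all genes tested 8.29% were called and 43.9% passed the adjusted p at any fold. In NR, where *Rhox13* was lowest, the fibroblast sum was over that of Veh in both libraries, and *Ddx4*, *Dazl* and *Mael* together had 705 and 671 CPM. Scaled to *Ddx4*, *Dazl* and *Mael*, it was -0.99 (adjusted p = 1.58e-12).

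*Rhox10* was also higher in NRRA than in Veh, in a comparison that shares the Veh libraries with that of RA alone, and so were *Rhox6* and *Rhox9*, again tested only through their RA-treated libraries. The log2 fold change was 2.10 for *Rhox6* (SE 0.525, adjusted p = 0.00125), 1.45 for *Rhox9* (SE 0.434, adjusted p = 0.00551) and 1.09 for *Rhox10* (SE 0.179, adjusted p = 8.19e-06), where 15.9% of all genes tested were called (9.91% higher). *Rhox13* had 0.47 (SE 0.0870, adjusted p = 4.22e-05), and scaled to the 3 germ cell genes 0.05 (adjusted p = 0.719), so that its rise over Veh depends on the scaling. *Rhox10* with that scaling was 0.67 (adjusted p = 0.000546) and under 2-fold. *Rhox9* lost its call by DESeq2 (adjusted p = 0.0698). That scaling put the median of all genes at -0.30 for RA, -0.29 for NR and -0.39 for NRRA, each against Veh.

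**Figure D2:**
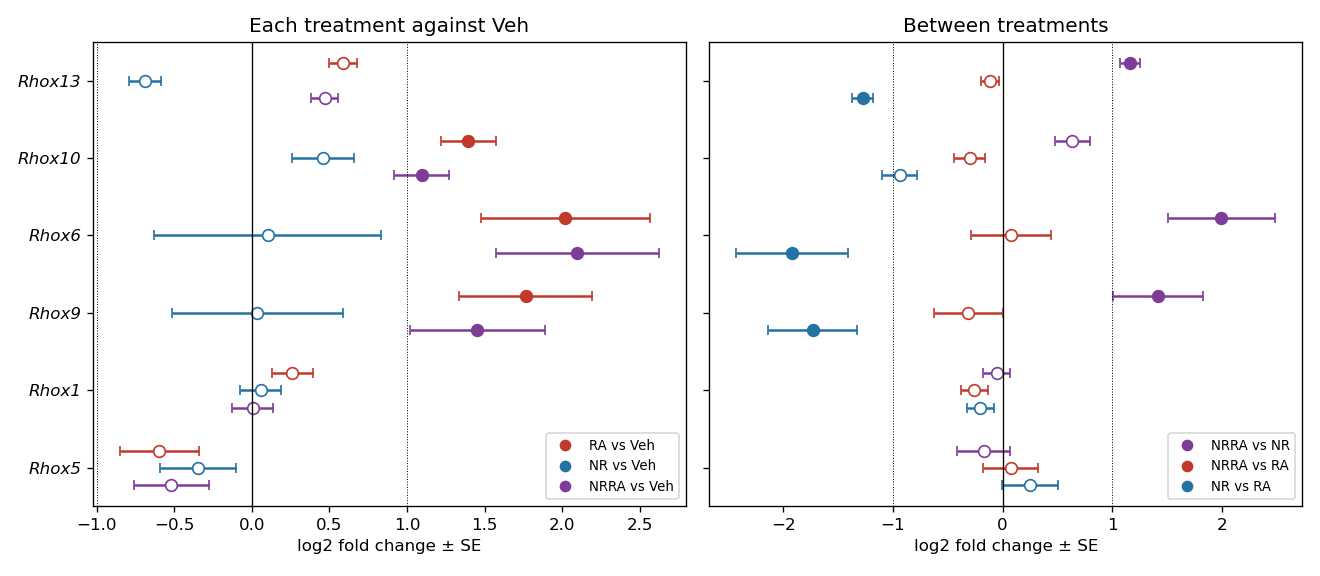
Log2 fold change with its SE (horizontal axis) of the 6 tested members, each treatment against Veh on the left and between treatments on the right. Filled points are called, open points are not, and dotted lines mark a fold change of 2. *Rhox6*, *Rhox9* and *Rhox10* are filled in RA and NRRA against Veh, and *Rhox13* is filled for NRRA against NR and for NR against RA.

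Adding nutrient restriction to RA called no member. In NRRA against RA the log2 differences ran from -0.31 for *Rhox9* (SE 0.315, adjusted p = 0.470) to 0.08 for *Rhox6* (SE 0.361, adjusted p = 0.891), with -0.30 for *Rhox10* (SE 0.140, adjusted p = 0.0933), which with germ cell scaling was -0.43 (adjusted p = 0.0141). By edgeR 2 members had an unadjusted p under 0.05 and DESeq2 called 0, while 8.29% of all genes tested were called.

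Adding RA to nutrient restriction raised *Rhox13* past 2-fold. *Rhox6* and *Rhox9* were also called higher, and both were tested only because their RA-treated libraries passed the filter on low counts. The log2 fold change of NRRA against NR was 1.16 for *Rhox13* (SE 0.0917, adjusted p = 6.66e-11), 1.99 for *Rhox6* (SE 0.489, adjusted p = 0.00155) and 1.42 for *Rhox9* (SE 0.409, adjusted p = 0.00626). *Rhox10* rose by 0.64 (SE 0.160, adjusted p = 0.00191), under 2-fold. In this comparison 8.7% of all genes tested were called (4.56% higher). The call of *Rhox9* was lost by DESeq2 (adjusted p = 0.0799) and without the first NR library (0.98, adjusted p = 0.106).

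In the direct comparison of NR with RA, *Rhox13* was called lower in NR, where 12.5% of all genes tested were called (5.62% lower). *Rhox6* and *Rhox9* were called lower too, again tested only through their RA-treated libraries. The log2 difference was -1.92 for *Rhox6* (SE 0.509, adjusted p = 0.00274), -1.73 for *Rhox9* (SE 0.405, adjusted p = 0.000868) and -1.28 for *Rhox13* (SE 0.0930, adjusted p = 7.62e-12). *Rhox10* had -0.94 (SE 0.159, adjusted p = 1.98e-05), just under the fold asked for. *Rhox6* lost its call by DESeq2 (adjusted p = 0.0535) and without the second RA library (-1.39, adjusted p = 0.121).

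*Rhox13* and *Rhox10* responded to RA to a different extent in the 2 media, and in opposite directions. For *Rhox13* the log2 effect of RA was larger under nutrient restriction by 0.57 (SE 0.129, adjusted p = 0.00304), and the RA-treated levels in both media were close while the untreated level was lower in NR. For *Rhox10* it was smaller under nutrient restriction by 0.76 on the log2 scale (difference -0.76, SE 0.245, adjusted p = 0.0403). Neither difference reached 1 on the log2 scale, so edgeR and DESeq2 both called 0 members, against 2.24% of all genes tested, while 13% passed the adjusted p at any size. *Rhox6*, *Rhox9*, *Rhox1* and *Rhox5* had differences between -0.35 and 0.42, with adjusted p from 0.290 to 0.990. Over the alternatives tried, the adjusted p for *Rhox13* ran from 0.000866 to 0.0453 and that for *Rhox10* from 0.00963 to 0.285.

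**Figure D3:**
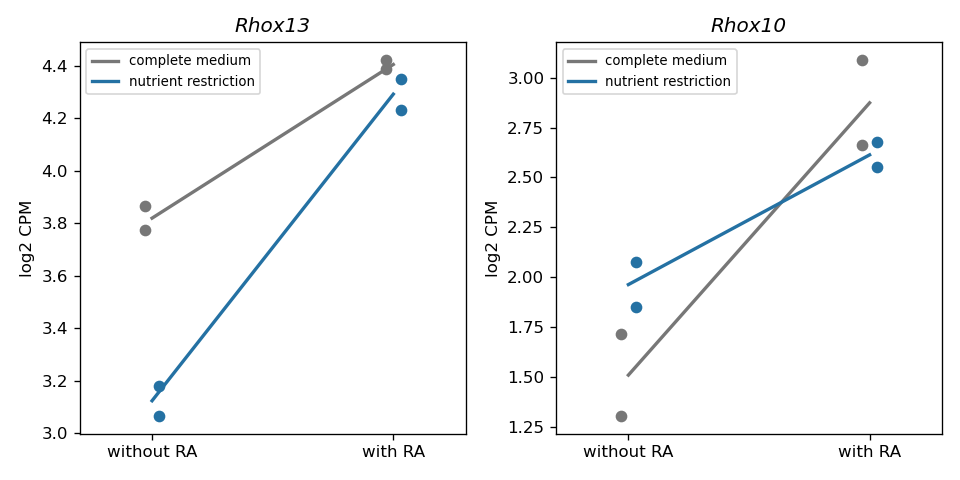
Log2 CPM (vertical axis) of *Rhox13* and *Rhox10* without and with RA, in complete medium and under nutrient restriction, with a point for each library and lines between the means of 2 libraries. The line of *Rhox13* is steeper under nutrient restriction (1.16 against 0.59), and that of *Rhox10* is steeper in complete medium (1.39 against 0.64).

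Correlations between the tested members ran from -0.66 to 0.92. Over the 8 libraries, the log2 levels of *Rhox10* and *Rhox6* had a Pearson r of 0.92, those of *Rhox9* and *Rhox10* 0.90, those of *Rhox9* and *Rhox6* 0.90 and those of *Rhox10* and *Rhox13* 0.68. *Rhox5* had a negative r with each of the 5 other tested members, from -0.66 to -0.30. These values describe 8 libraries in 4 conditions, of which RA and NRRA had RA and Veh and NR did not. *Rhox6* and *Rhox9* were tested only through their RA-treated libraries and had 3 to 33 reads per library. Their r with other members is therefore no support for a shared pattern. Outside the family, the genes most like *Rhox13* included *Itprid2* (r = 0.995) and *Dusp1* (0.993), and those most like *Rhox10* were *Prpf18* (0.988), *Med13* (0.985) and *U2surp* (0.983). With 554 and 507 tested genes at r above 0.9, these patterns were common, whereas 4 genes had such an r with *Rhox1*, led by *Gm41396* (0.951), *AV356131* (0.920) and *3930402G23Rik* (0.915).

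The other genes of the cluster were summed, since many are near-identical copies. All 42 Rhox genes together had 54.8 ± 0.495 CPM under Veh, 73.4 ± 0.674 under RA, 45.5 ± 1.36 under NR and 69.4 ± 0.634 under NRRA (SD, n = 2 each), and without the 8 members the sums were 28.0, 32.9, 23.4 and 33.3 CPM. The 8 *Rhox2* copies summed to 13.2 CPM under Veh, 15.3 under RA, 9.02 under NR and 12.4 under NRRA. The 7 *Rhox3* copies stayed at or under 0.696 CPM in sum and the 8 *Rhox4* copies at or under 1.06 CPM in the condition means. Of the 34 other Rhox genes 13 were tested, and those called were *Rhox2f* (log2 difference -1.15, SE 0.248, adjusted p = 0.000363) and *Rhox2e* (-1.59, SE 0.600, adjusted p = 0.0305), both lower in NR than in RA, where 12.5% of all genes tested were called. Of the read-length windows of *Rhox2e* 90.7% also occur in other genes, and of those of *Rhox2f* 32.2%, so their counts are uncertain.

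**Figure D4:**
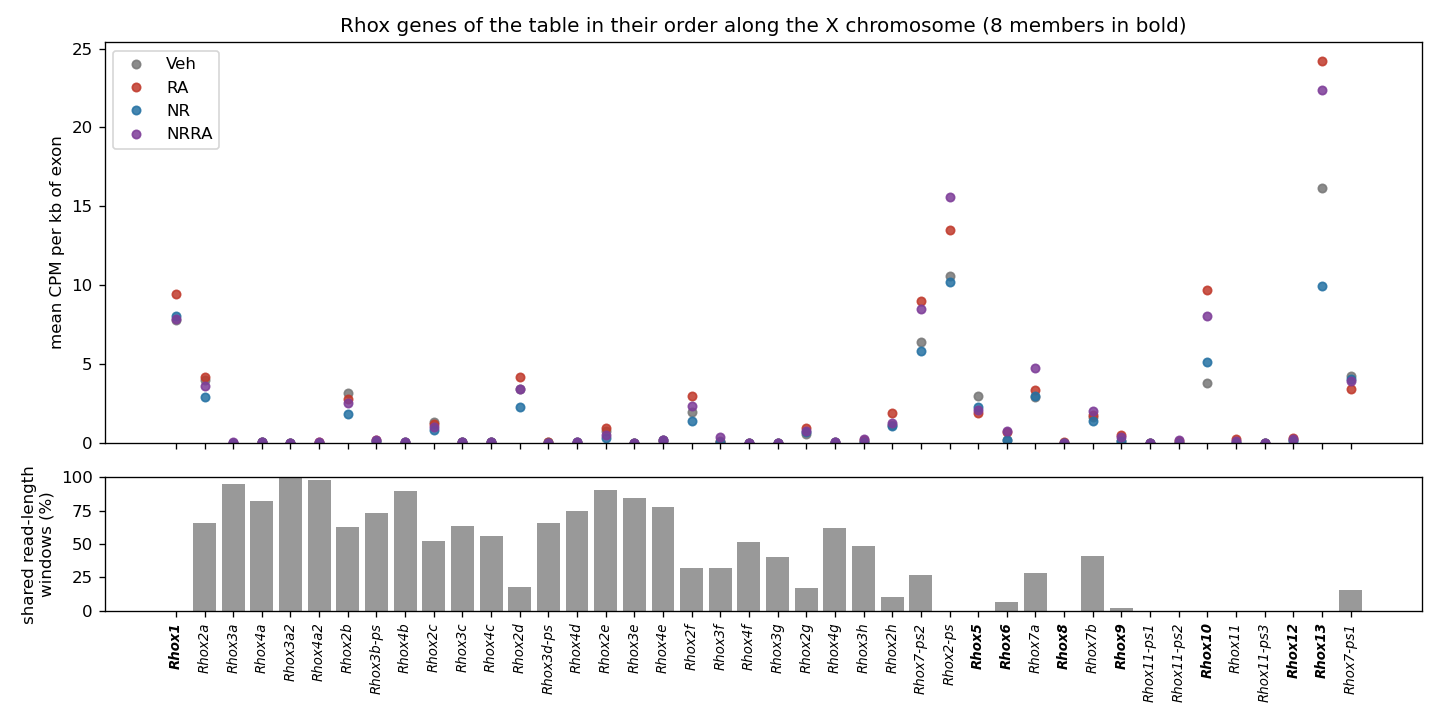
Mean CPM per kb of exon (upper panel, n = 2 libraries per point) of the Rhox genes in their order along the X chromosome, coloured by condition, with the percentage of windows of read length that also occur in other genes below. *Rhox13*, near the right end, has the highest level in RA (24.2 CPM per kb), and most of the highest shared percentages are those of *Rhox2*, *Rhox3* and *Rhox4* copies.

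The genes around the cluster were counted as the neighbourhood of the members. Within 1 Mb of the outermost members lie 61 genes of the table that are not Rhox genes, of which 30 were tested. In RA against Veh, 4 of them were called higher (*Akap17b*, *Gm14569*, *Gm25047* and *Gm6268*) and 0 lower, with a median log2 fold change of 0.23 against -0.02 over all genes. In NRRA against Veh, *Akap17b*, *Gm25047*, *Gm6268* and *Lonrf3* were called higher and *Slc25a43* lower, and *Akap17b* stood at 1.65 on the log2 scale (SE 0.0842, adjusted p = 3.53e-15). In NR against Veh, *Gm14569* and *Gm25047* were called higher and *Slc25a43* lower. Over all genes tested, the shares called were 7.49% in RA, 15.9% in NRRA and 8.29% in NR, and no test of the members against their neighbours was made.

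The promoter windows of 5 members were found in the RefSeq table, those of *Rhox1*, *Rhox5*, *Rhox10*, *Rhox12* and *Rhox13*. Half-sites of retinoid receptors were searched as the letters AGGTCA, as their variant GGGTCA, as the form AGTTCA and as the form GGTTCA on both strands, alone and as direct repeats spaced by 1, 2 or 5 bases, and so half-sites also count within repeats. *Rhox1* held a direct repeat spaced by 1, AGGTCATAGGTCA, which begins 36 bases into the transcribed part, and such a repeat occurs in 0.222% of 32851 windows. *Rhox12* held 1 half-site, AGGTCA, 18 bases before the start, and 43.7% of windows hold a half-site. Neither the *Rhox10* window nor that of *Rhox13* held these letters, and repeats spaced by 2 and by 5 occur in 0.268% and 0.0974% of windows. The letters CCGGAA were found on the minus strand of the *Rhox5* window (14.9% of windows), whose RefSeq start lies 50234 bases from that of the GENCODE gene, and CNCCTCAG was in none of the 5 (7.94% of windows). These matches describe letters in short windows only.

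Genes linked to the family by function were counted from fixed lists. Of 12 genes of DNA methylation and H3K9 methylation, 0 were called in RA or in NR against Veh. In NRRA 2 were called, where 15.9% of all genes tested were. *Tet3*, which oxidises methylated DNA, was called higher (1.04, SE 0.0522, adjusted p = 2.83e-15). *Dnmt3l*, a cofactor of new DNA methylation, was called lower (-1.505, SE 0.216, adjusted p = 1.2e-06). Under the fold asked for, *Dnmt3l* had -0.86 in RA (SE 0.206, adjusted p = 0.00133) and *Tet3* had 0.67 in NR (SE 0.0536, adjusted p = 7.61e-11). By edgeR 7 of the 12 passed the adjusted p at any fold in RA and 8 in NR, where 43.2% and 43.9% of all genes tested did. For NRRA it was 11 of the 12, where 6171 of all 20477 genes tested passed higher and 5880 lower. Of 8 reported targets or regulators of Rhox factors 7 were tested, and *Ins2* had at most 3 reads in every library. *Nanos2* and *Zbtb16*, factors of undifferentiated spermatogonia, were called lower in RA (-5.30, SE 0.410, adjusted p = 6.14e-11, and -2.36, SE 0.0573, adjusted p = 3.55e-21). *Unc5c*, a netrin receptor gene known to be repressed by RHOX5 in Sertoli cells, was called higher in NR (1.32, SE 0.138, adjusted p = 1.3e-08) and NRRA, with 3.81 and 5.58 CPM in Veh and 11.7 and 11.7 CPM in NR. In RA, *Unc5c* had 4.59 and 4.40 CPM and did not pass the test (-0.06, SE 0.164, adjusted p = 0.796). *Rhox5* itself passed the adjusted p in no comparison with TMM scaling, and a link between *Rhox5* and *Unc5c* was not tested.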

How the data were processed

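RNA-seq of SSC culture in Veh, RA, NR and NRRA was analysed with 2 libraries per condition, grouped by the sample labels. The authors deposited raw counts per gene, and per the submitters' processing notes the tools were bcl2fastq, STAR 2.6.1c and featureCounts 1.6.4 with build mm10. Settings for strand and for reads with several matches are not given in the sources used here, so counts of near-identical copies are uncertain. The labels give Trizol RNA, TruSeq and NuGEN library preparation.

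Counts of all 55421 genes were filtered with filterByExpr, scaled by TMM and fitted with edgeR 4.0.16 in R 4.3.3 (quasi-likelihood F test, 1 coefficient per condition over all 8 libraries, Benjamini-Hochberg adjustment over 20477 genes). The SE is the absolute log2 fold change divided by the square root of F. Levels over libraries were correlated as log2(CPM + 0.5). Coordinates, exon lengths and shared windows came from GENCODE M21, and promoters from RefSeq. On simulated data, 198 of 200 changed genes were recovered among 19935, with 3 false calls. The changed genes were drawn above a minimum of expected reads and given large changes only. All genes had the same coefficient of variation, 3.22%. The recovery therefore does not speak for members with few reads, such as *Rhox6* and *Rhox9*, or for smaller changes. Nor do the 3 false calls give an error rate for these data, since spread that differs between genes was not simulated. Every gene of the family was named, with the other Rhox genes that were called, the 3 genes most alike to each of the 3 most abundant members and up to 3 examples per list, of which some are not reported here. The members and lists were chosen with earlier results of these data known. Between replicates, the counts differed by more than sampling noise in every condition (chi-square per gene 1.58 to 3.93), so each library was counted once. Alternatives were DESeq2 1.42.0, other scalings, filters and thresholds, a replicate block, trends of GC content and length, and leaving out each library.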

Additional observations from a re-analysis of the deposited data

Results flagged for a closer look

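For 2 members the effect of RA under nutrient restriction differed from its effect in complete medium by edgeR's interaction test. The difference on the log2 scale was 0.57 for *Rhox13* (SE 0.129, adjusted p = 0.00304). The RA effects were 1.16 under nutrient restriction and 0.59 in complete medium. Both libraries with RA were above both without it in each medium. Of all genes tested, 72.5% did not overlap between NRRA and NR and 68.1% between RA and Veh. The difference was -0.76 for *Rhox10* (SE 0.245, adjusted p = 0.0403), with RA effects of 0.64 and 1.39. The *Rhox13* difference stayed past the adjusted p in every alternative tried. That of *Rhox10* did not by DESeq2 (adjusted p = 0.195), with germ cell scaling (0.113), or without the second RA library (-0.50, adjusted p = 0.285), the first Veh library (0.157), the second NR library (0.194), the first NRRA library (0.116) or the second NRRA library (0.0616). With 2 libraries per condition, single libraries could not be checked for standing apart within a condition.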

How the results depend on the processing

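The counts of members called kept within 1.5 times of their value under DESeq2, other scalings, no filter and the GC and length trend. With at least 50 counts in both libraries of 1 condition, 3 members could be tested, and 1 was called in each of RA against Veh, NRRA against Veh, NRRA against NR and NR against RA, since *Rhox6* and *Rhox9* fell out. With no fold threshold, 1 member passed in NR against Veh and 2 in the interaction. Leaving out each library gave 2 to 3 members in RA against Veh, NRRA against Veh and NRRA against NR, 2 to 4 in NR against RA, 0 in NR against Veh and NRRA against RA, and 0 to 1 in the interaction, where *Rhox10* reached -1.004 without the second Veh library. Without the first Veh library, *Rhox10* in NRRA against Veh was 0.90 (adjusted p = 0.00051), under the fold asked for. *Rhox10* in NR against RA was called with library totals alone (-1.01), without the first RA library (-1.11) and without the second NR library (-1.07). Of 685 member values under alternatives that kept the thresholds, 672 kept their call or stayed uncalled, 9 calls were lost, 4 gained and 0 called values reversed. By the adjusted p alone, 15 values went from under 0.05 to 0.05 or over and 13 the other way, 7 of the first being the interaction of *Rhox10*. With the replicate block, 3 members were called in RA against Veh, NRRA against Veh, NRRA against NR and NR against RA and 0 in the others, the same counts as without it. Deviations of same-numbered libraries correlated at -0.033 to 0.023, so the numbers were not taken to pair the libraries. Scaling to *Ddx4*, *Dazl* and *Mael* was chosen after the fibroblast levels were seen, and called 2 members in NRRA against Veh in place of 3, with the other counts equal. Depth limits *Rhox6* and *Rhox9*, with 3 to 33 reads per library.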
